A study of Mus musculus with 6 samples.

Results

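The genes followed here, 7 in all, mark or drive the passage of epithelial cells towards a mesenchymal state: the transcription factors Zeb1, Zeb2, Snai1, Snai2 and Twist1, the intermediate filament protein Vim (vimentin) and the adhesion protein Cdh2 (N-cadherin). They were chosen by name, as the probe sets whose annotation gives 1 of these symbols and no other. All 7 of the 18193 genes measured were found, on 18 probe sets, and each gene is represented by its brightest probe set (by the mean of the 6 arrays). The cells were mPAC L20, a mouse pancreatic duct line, and every sample carried an adenovirus that drives Neurog3, the factor that starts endocrine differentiation, from the CMV promoter. The groups differed in a second adenovirus, added first: a scrambled hairpin in shControl (3 samples) and one that targets Atoh8, itself a factor of the basic helix-loop-helix (bHLH) class, in shAtoh8 (3 samples). Both viruses were given at a multiplicity of infection of 40, and cells were cultured for 44 to 46 h afterwards. Samples without the Neurog3 virus or without any virus were not analysed here, the line is a single one, and the 3 replicates of each group came from independent experiments per the series' design text.

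In epithelial to mesenchymal transition (EMT), cells give up cadherin junctions and apical polarity and gain motility. Factors of the SNAI and ZEB families are zinc finger repressors that bind E-boxes in genes of epithelial junctions, Cdh1 (E-cadherin) above all, and Twist1 is a bHLH factor that acts on the same programme. A switch from Cdh1 to Cdh2 and a rise of Vim are the usual readouts. In the pancreas, endocrine precursors that express Neurog3 leave the duct epithelium, and SNAI factors have been linked to that step.

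E-boxes have the letters CANNTG, which read the same on both strands, and are bound by bHLH proteins such as Atoh8, Neurog3 and Twist1. SNAI and ZEB proteins favour the E-box CACCTG, searched here on both strands. The 250 bases before the gene starts of Zeb2 and Snai1 are shown because Zeb2 had the largest difference between the groups and Snai1, like Zeb2, was highest on the replicate 3 arrays of both groups. They come from RefSeq's table for GRCm38.p6, which holds 4 of the 7 genes (Vim, Zeb2, Snai1 and Twist1) in 7 windows. Capitals mark every E-box.
Zeb2, chr2:45117443-45117692, minus strand, the most upstream of its 4 listed starts: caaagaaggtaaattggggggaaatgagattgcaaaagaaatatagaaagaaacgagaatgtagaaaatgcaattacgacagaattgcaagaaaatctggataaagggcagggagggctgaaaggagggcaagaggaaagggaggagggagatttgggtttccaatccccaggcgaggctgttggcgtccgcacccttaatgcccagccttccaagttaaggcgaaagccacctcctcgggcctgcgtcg
Snai1, chr2:167537945-167538194, plus strand: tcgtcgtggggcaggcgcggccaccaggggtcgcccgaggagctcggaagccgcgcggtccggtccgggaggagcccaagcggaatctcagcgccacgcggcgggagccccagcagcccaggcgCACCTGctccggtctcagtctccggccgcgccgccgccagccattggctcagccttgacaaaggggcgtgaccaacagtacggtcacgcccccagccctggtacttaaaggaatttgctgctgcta
The Snai1 window holds 1 E-box, CACCTG. The Zeb2 window printed, its 3 other windows and the Vim and Twist1 windows hold 0. Of 32851 windows of this length in the table, 66.2% hold a CANNTG and 17.2% hold CACCTG on either strand. These are matches of letters only, and the arrays say nothing of binding.

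The median log2 signal of 45037 probe sets was 5.49 to 5.56 on the 6 arrays. The shAtoh8 replicate 2 array stood apart in its controls: its mean hybridisation spike signal was 9.63, where the others had 9.99 to 10.26, and its 3' actin signal exceeded the 5' one by 0.354, where the others had 0.107 to 0.202 (log2). Atoh8, the target of the hairpin, read 8.75, 8.29 and 7.52 in shControl and 7.83, 7.90 and 7.37 in shAtoh8. The difference did not pass (log2 fold change -0.49 ± 0.30 SE, limma adjusted p = 0.573). Between arrays of the same replicate number Atoh8 was lower in 3 of 3 pairs (-0.92, -0.39 and -0.15). With the replicate number in the model it did not pass either (limma adjusted p = 0.157). Of 10 duct markers measured, 7 had a mean above the median of all probe sets (5.52), among them Krt19 (13.4), Krt7 (10.7) and Sox9 (9.32), while Cftr (3.71) and Onecut1 (4.99), both duct genes, lay below it. A signal in these files carries no call of presence or absence, and signals of different probe sets cannot be ranked against each other, since probes differ in how brightly they bind.

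None of the 7 genes passed the test between the hairpins. The count was 0 at a limma adjusted p under 0.05 over all probe sets, against 1.15% of all genes (210 of 18193), and 1 at an unadjusted p under 0.05 (Zeb2), against 17.5% of all genes. The main probe sets had 3 positive and 4 negative differences, with a median log2 fold change of -0.09 (0.01 over all genes) and a median size of 0.11 (0.11 over all genes). Adjusted p-values of the 7 ran from 0.339 to 0.988. The labels do not state that arrays of the same replicate number share an experiment. When the replicate number entered the model as a block, so that each shAtoh8 array was read against the shControl array of the same number, Zeb2 passed lower. That is 1 of 7 genes, where 4.67% of all genes passed (2.75% lower). In these bulk samples, fewer cells that express a gene and less RNA per cell cannot be told apart.

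**Figure D1:**
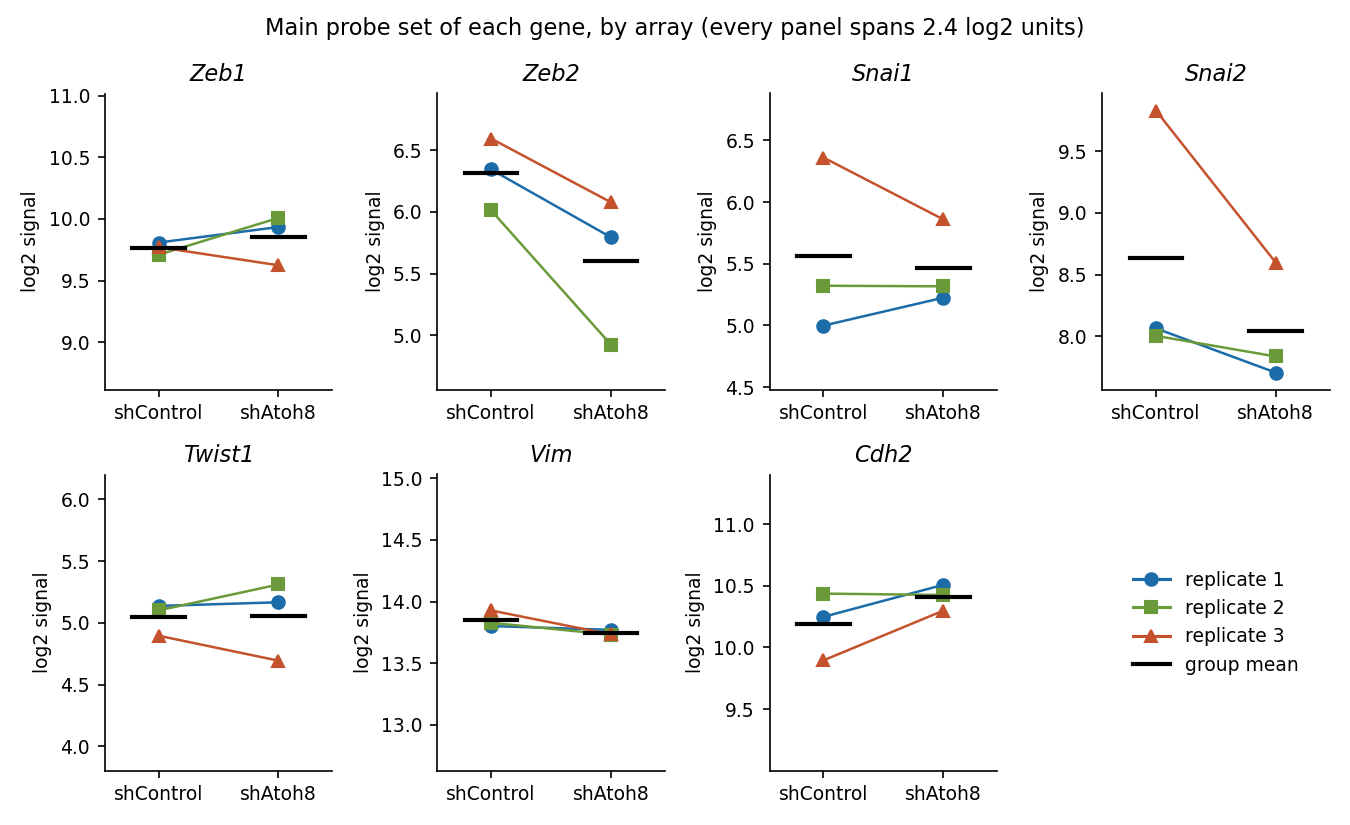
Log2 signal of the main probe set of each gene on the 6 arrays, with shControl on the left and shAtoh8 on the right of each panel. Lines join arrays of the same replicate number and black bars are group means (n = 3). Zeb2 is lower in shAtoh8 along all 3 lines, while for Snai1 and Snai2 the replicate 3 arrays lie above the others in both groups.

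Zeb2, a zinc finger repressor that also binds SMAD proteins, had the largest difference of the 7. Its main probe set gave 6.34, 6.01 and 6.59 on the shControl arrays and 5.79, 4.92 and 6.08 on the shAtoh8 arrays, in the order of the replicate numbers, as in all such values here. The groups overlapped narrowly: the highest shAtoh8 array, replicate 3, lay above the lowest shControl array, replicate 2. The shControl mean of 6.32 ± 0.29 (SD, n = 3) compared with 5.60 ± 0.60 in shAtoh8. The log2 fold change was -0.72 ± 0.29 SE (95% interval -1.41 to -0.03, limma adjusted p = 0.339), or 1.65-fold lower. Within replicate numbers the log2 differences were -0.55, -1.09 and -0.52, lower in 3 of 3 pairs. All pairs went the same way for 3 of the 7 genes and for 45.5% of all genes. With the replicate block the error shrank to 0.13 and the limma adjusted p was 0.0477. Its fold change was exceeded in the negative direction by 328 of the 18193 genes.

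The blocked call of Zeb2 was close to the threshold. Without both arrays of replicate 1 or of replicate 3 the blocked limma adjusted p was 0.152 and 0.167. In either setting 0 of all genes passed, so these settings cannot tell whether the call of Zeb2 depends on those arrays. Without both arrays of replicate 2 it was 0.0431, where 962 of all genes passed. The lowest Zeb2 value belongs to the shAtoh8 replicate 2 array, the one with the weak spikes, and without that array the unblocked log2 fold change was -0.38 (limma adjusted p = 0.455). Without both replicate 2 arrays the blocked fold change was -0.53.

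Zeb2 has 4 further probe sets. The next brightest read 5.69, 5.39 and 6.35 in shControl and 5.28, 5.25 and 5.40 in shAtoh8, again lower in 3 of 3 pairs (-0.41, -0.14 and -0.95). Its log2 fold change of -0.50 ± 0.22 SE did not pass (limma adjusted p = 0.394, and 0.162 with the block). Here the widest gap came from replicate 3, where on the main probe set it came from replicate 2. The other 3 probe sets, with means of 3.38 to 4.82, each differed by -0.03. As the mean of its 5 probe sets, Zeb2 had a log2 fold change of -0.26.

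Zeb1, the other ZEB repressor, differed little on its main probe set, which read 9.81, 9.71 and 9.77 in shControl and 9.93, 10.01 and 9.62 in shAtoh8. The log2 fold change was 0.09 ± 0.11 SE (95% interval -0.18 to 0.36, limma adjusted p = 0.823). The pairs disagreed, with differences of 0.13, 0.30 and -0.15. Its 3 other probe sets gave -0.14, -0.21 and 0.14 in order of brightness, and none of the 4 passed with or without the block (limma, 0 at an unadjusted p under 0.05 without it and 1 with it). On the next brightest the groups did not overlap (6.65 to 6.73 in shControl, 6.48 to 6.63 in shAtoh8), which held for 24.0% of all genes on their main probe sets. The sign of Zeb1 thus depends on the probe set, and as a mean of its probe sets it read -0.03.

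**Figure D2:**
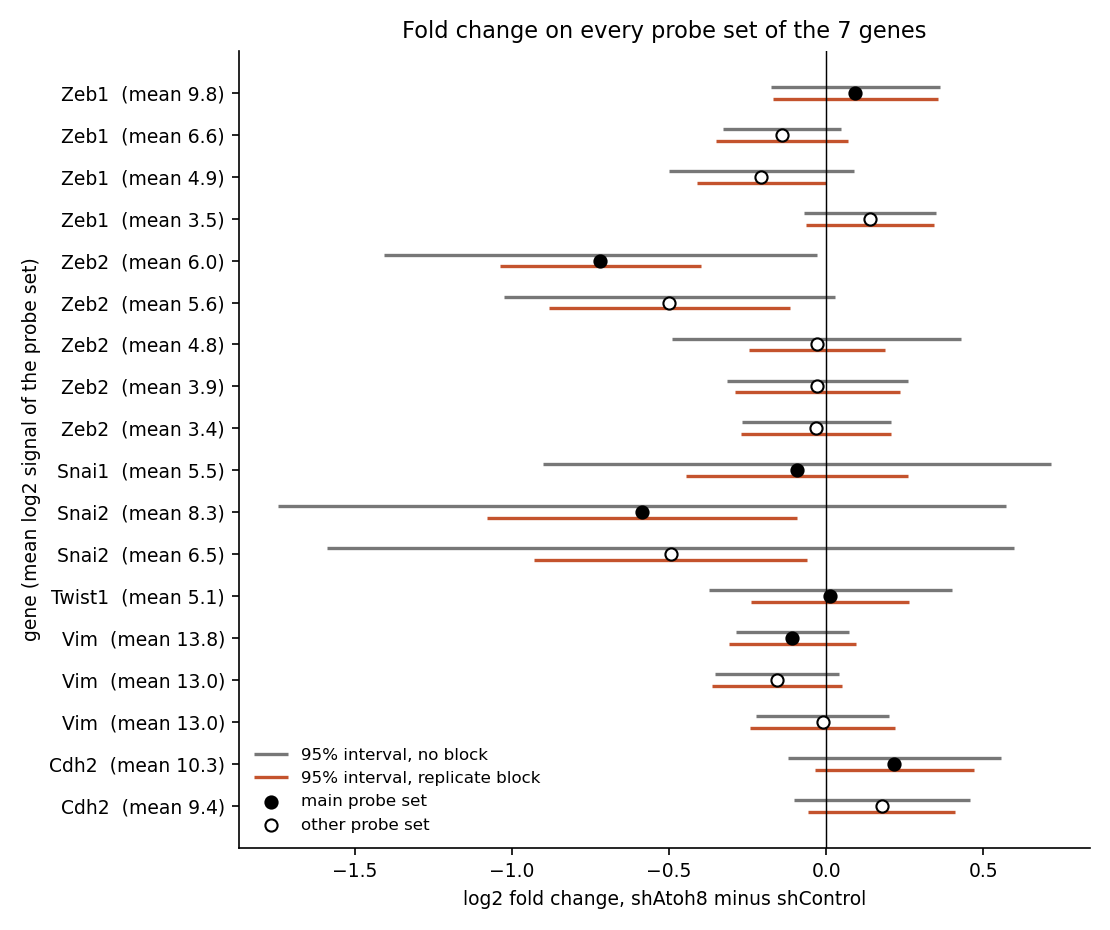
Log2 fold change (shAtoh8 minus shControl) on all 18 probe sets of the 7 genes, labelled with the mean log2 signal of each. Filled circles are main probe sets, open circles the others, and lines are 95% intervals from limma without (grey) and with (orange) the replicate block. The intervals of Snai1 and Snai2 narrow most with the block, and Zeb2's main probe set lies at -0.72.

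Snai2 (Slug) is a zinc finger repressor of the SNAI family, and its arrays spread widely within each group. Its main probe set read 8.06, 8.00 and 9.83 in shControl and 7.71, 7.84 and 8.60 in shAtoh8. Replicate 3 was the highest array in each group, and the groups overlapped. The means were 8.63 ± 1.04 and 8.05 ± 0.48 (SD, n = 3), a log2 fold change of -0.59 ± 0.49 SE (95% interval -1.74 to 0.57) and a limma adjusted p of 0.710. Each of the 3 pairs was lower, by -0.36, -0.17 and -1.23, and with the block the limma adjusted p was 0.196. The second probe set ran in parallel, at 6.10, 6.24 and 7.84 in shControl and 5.88, 6.03 and 6.78 in shAtoh8 (-0.50 ± 0.47 SE, limma adjusted p = 0.749, and 0.214 with the block). The unblocked size rests on shControl replicate 3: without that array alone the log2 fold change of the main probe set was 0.012. That setting keeps the high replicate 3 array of shAtoh8. Without both replicate 3 arrays, and with the block, the log2 fold change was -0.26.

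Snai1 (Snail), the repressor that gave the family its name, has a single probe set. It read 5.0, 5.32 and 6.36 in shControl and 5.23, 5.32 and 5.86 in shAtoh8, so that replicate 3 was again the highest in each group. The log2 fold change was -0.09 ± 0.34 SE (95% interval -0.90 to 0.71, limma adjusted p = 0.952, and 0.821 with the block). The pairs gave 0.23, -0.01 and -0.50, and without shControl replicate 3 the fold change was 0.31.

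Twist1, also on a single probe set, read 5.14, 5.10 and 4.90 in shControl and 5.17, 5.31 and 4.69 in shAtoh8. The group means, 5.05 ± 0.13 and 5.06 ± 0.32 (SD, n = 3), differed by 0.01 ± 0.16 SE (95% interval -0.37 to 0.40, limma adjusted p = 0.988). Replicate 3 was the lowest array in each group, opposite to Snai1 and Snai2.

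Vim, the filament protein of mesenchymal cells, was bright on every array and nearly flat. Its main probe set read 13.80, 13.83 and 13.93 in shControl and 13.77, 13.73 and 13.73 in shAtoh8. The groups did not overlap, and Vim was the only 1 of the 7 main probe sets for which this held (24.0% of all genes). The log2 fold change was -0.11 ± 0.08 SE (95% interval -0.29 to 0.07, limma adjusted p = 0.645), 1.08-fold lower. A second probe set, also without overlap, gave -0.16 ± 0.08 SE (limma adjusted p = 0.496), and the third gave -0.01.

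Cdh2, the cadherin of mesenchymal and neural cells, read 10.25, 10.44 and 9.90 in shControl and 10.51, 10.43 and 10.30 in shAtoh8. The difference of 0.22 ± 0.14 SE did not pass (95% interval -0.12 to 0.56, limma adjusted p = 0.609, and 0.354 with the block), with pairs of 0.26, -0.01 and 0.40. The second probe set gave 0.18 ± 0.12 SE. Its partner in the cadherin switch, Cdh1, read 11.84, 11.96 and 12.01 in shControl and 11.69, 11.74 and 11.98 in shAtoh8, a log2 fold change of -0.14 ± 0.10 SE (limma adjusted p = 0.667). Neither cadherin passed the test.

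For 6 of the 7 genes the replicate number held more of the variation than the hairpin did. Of the sum of squares of Snai2 over the 6 arrays, 73.2% lay between replicate numbers and 16.5% between hairpins. For Snai1 these shares were 88.0% and 1.03%, and for Twist1 82.3% and 0.0952%. Zeb2 was split nearly evenly, with 47.4% between replicate numbers and 46.4% between hairpins, and Vim was the member with the larger share between hairpins (63.8%, against 11.5%). Among all genes replicate numbers held the larger share for 61.2%, and the median shares were 39.6% and 21.7%. These shares describe the 6 arrays and were not tested.

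The spread among the 3 shControl arrays placed Snai2 and Snai1 among the most variable genes measured. The range of Snai2 over them was 1.83 on the log2 scale and that of Snai1 1.36, larger than in 99.8% and 99.4% of genes, where the median range was 0.227. Zeb2 ranged over 0.58, more than 92.9% of genes. Zeb1 and Vim ranged over 0.10 and 0.13, more than 14.3% and 21.4% of genes. In shAtoh8 the range was 0.89 for Snai2, 0.63 for Snai1 and 1.15 for Zeb2, against a median of 0.218.

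For Snai1 and Snai2 the replicate 3 arrays stood apart in both groups. Replicate 3 was singled out after the values were seen. In shControl the replicate 3 array exceeded the mean of replicates 1 and 2 by 1.80 for Snai2, 1.2 for Snai1 and 0.42 for Zeb2, and in shAtoh8 by 0.82, 0.59 and 0.72. These 3 of the 7 were higher in replicate 3 of both groups, as were 27.1% of all genes. Twist1 (-0.22 and -0.55) and Cdh2 (-0.45 and -0.17) were lower in both, as were 34.4% of all genes, while Zeb1 (0.01 and -0.35) and Vim (0.11 and -0.02) differed in sign. Neurog3 and Atoh8 were lowest on the replicate 3 arrays. The brighter Neurog3 probe set read 5.79 in shControl and 5.33 in shAtoh8 there, against 6.06 to 7.45 on the other arrays. Its second probe set read 5.92 and 6.22, against 6.38 to 6.66. Between the hairpins the brighter Neurog3 probe set was lower in 3 of 3 pairs (-0.67, -0.58 and -0.46), a log2 fold change of -0.57 ± 0.48 SE with a limma adjusted p of 0.706, and 0.0330 with the block. The second probe set went the other way without passing (0.18 ± 0.17 SE, limma adjusted p = 0.751, and 0.400 with the block). The part of Neurog3 and Atoh8 in the levels of Snai1, Snai2 and Zeb2, and in the blocked call of Zeb2, was not tested.

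**Figure D3:**
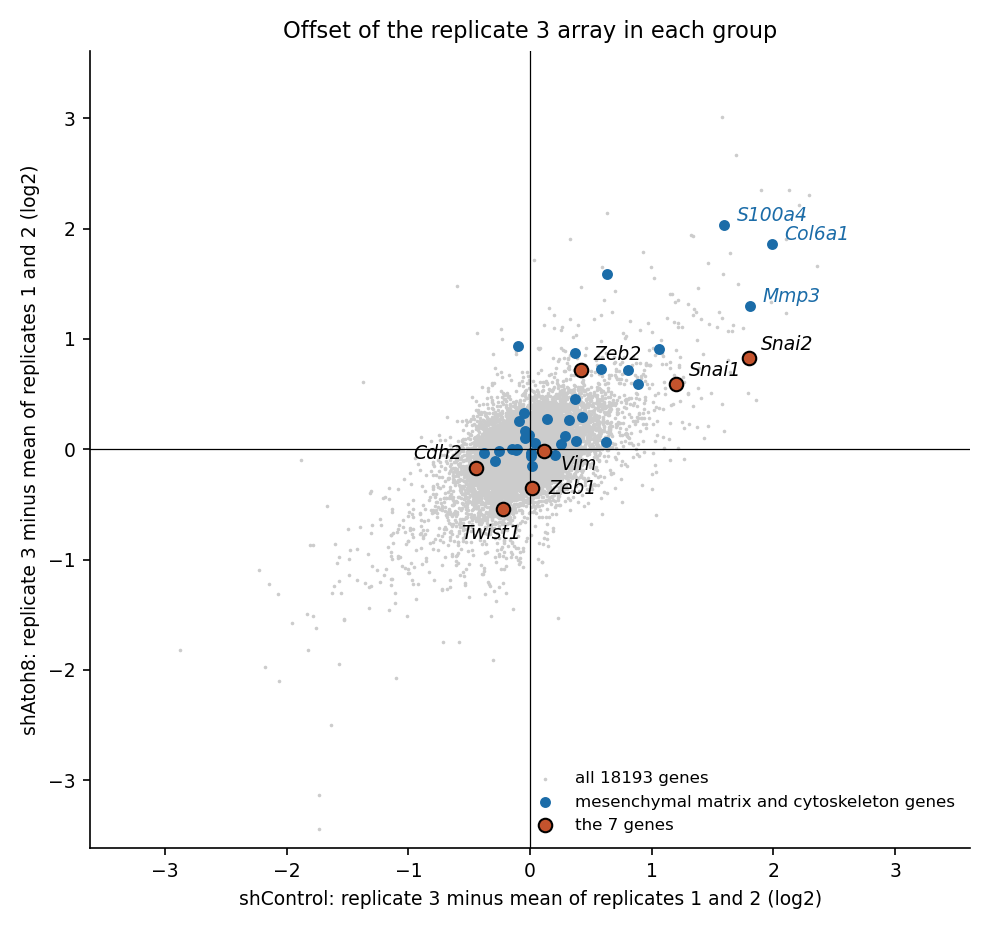
Replicate 3 array minus the mean of replicates 1 and 2, in log2 units, in shControl (horizontal) and shAtoh8 (vertical), for all 18193 genes (grey), 34 mesenchymal matrix and cytoskeleton genes (blue) and the 7 genes (orange). Snai1, Snai2 and Zeb2 lie at the upper right with Col6a1, S100a4 and Mmp3, and Twist1 and Cdh2 at the lower left.

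Genes that SNAI, ZEB and TWIST factors are known to act with were read from lists of other pathway genes. Of 34 mesenchymal matrix and cytoskeleton genes 0 passed limma between the hairpins (4 at an unadjusted p under 0.05), with 14 positive and 20 negative values and a median of -0.04 (0.01 over all genes). Timp1, an inhibitor of matrix proteases, read -0.48 ± 0.11 SE (limma adjusted p = 0.0949), and the integrin subunit Itgav 0.40 ± 0.10 (0.126). With the replicate block 3 fell: Timp1 (limma adjusted p = 0.0458), the matrix protease Mmp3 (log2 fold change -1.03, adjusted p = 0.0265) and the integrin subunit Itga5 (-0.46, 0.0482). Mmp3 and Itga5 were named after their values were seen. These counts and those of the lists below stand beside 17.5% of all genes at an unadjusted p under 0.05 and, with the block, 4.67% called (2.75% lower). Of the 34 genes, 21 had means above the median of all probe sets (5.52). Several defining genes of fibroblast matrix lay below it, with 4.83 for Col1a1, 4.84 for Col1a2 and 3.58 for Col3a1. Fn1 (fibronectin), at 11.8, and Cd44, at 13.2, lay above it. These signals carry no call of presence and do not rank the genes.

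The same list differed between the replicate numbers. It averaged 7.22, 7.31 and 7.60 in shControl and 7.17, 7.24 and 7.61 in shAtoh8, so that the replicate 3 arrays of both groups lay above the other 4. Of its 34 genes 18 were higher in replicate 3 of both groups and 5 lower, against 27.1% and 34.4% of all genes. The median offsets were 0.17 and 0.15 (-0.03 and -0.00 over all genes). Col6a1, a collagen VI chain, read 6.43, 6.75 and 8.58 in shControl and 5.95, 6.61 and 8.14 in shAtoh8. S100a4, a calcium-binding protein used as a fibroblast marker, read 11.07, 10.86 and 12.56 in shControl and 10.52, 10.50 and 12.55 in shAtoh8. Both were named after their values were seen.

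**Figure D4:**
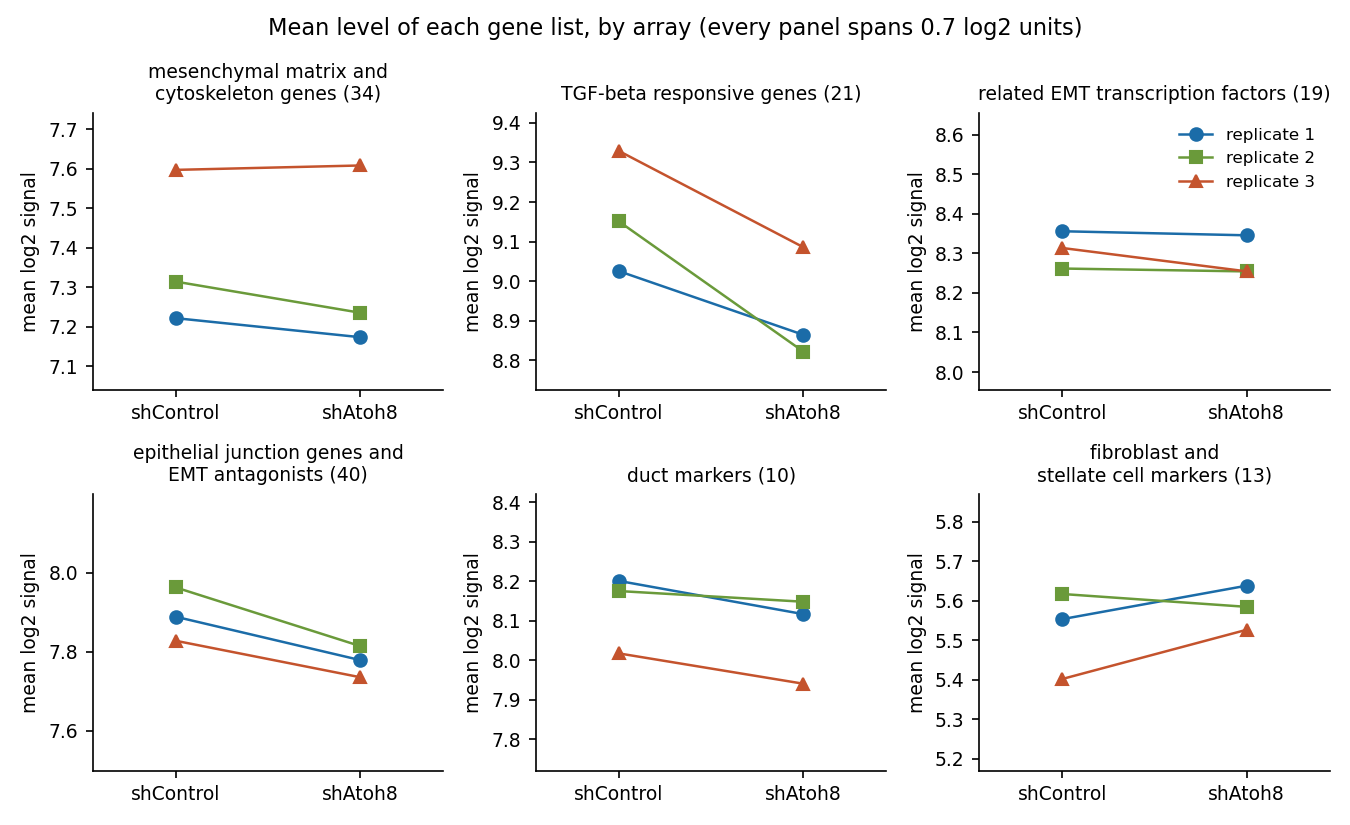
Mean log2 signal of 6 gene lists on each array, with the number of genes measured in brackets and lines joining arrays of the same replicate number. The replicate 3 arrays are the highest of their group for the mesenchymal and TGF-beta responsive genes and the lowest for the duct markers, the fibroblast and stellate cell markers and the epithelial genes.

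TGF-beta is a ligand known to induce SNAI and ZEB factors. Of 21 genes that respond to it, 0 passed limma (6 at an unadjusted p under 0.05), 15 were negative and the median was -0.15 (0.01 over all genes). The bHLH repressor Bhlhe40 read -0.71 ± 0.14 SE (limma adjusted p = 0.0694, and 0.0375 with the block) and the growth factor Pdgfb -0.88 ± 0.22 (0.126 and 0.0280), the 2 that fell with the block, where 2.75% of all genes did. Averaged over the list, shControl arrays had signals of 9.03, 9.15 and 9.33 and shAtoh8 arrays 8.86, 8.82 and 9.09, lower in each pair. Here too replicate 3 was high, with 12 of the 21 genes higher in both groups and 3 lower, against 27.1% and 34.4% of all genes. Inhba, which encodes an activin subunit and was named after its values were seen, read 7.75, 7.98 and 9.55 in shControl and 8.02, 7.23 and 10.29 in shAtoh8.

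Among 27 corepressors and regulators of SNAI and ZEB protein turnover, 1 passed limma. Wtip, a LIM protein of the Ajuba family that binds SNAI repressors, fell from 9.45, 9.41 and 9.60 to 8.93, 8.87 and 8.60, without overlap, by 0.69 on the log2 scale (SE 0.11) with a limma adjusted p of 0.0499, at the edge of the threshold. With the block its relative Limd1 rose by 0.66 (limma adjusted p = 0.148 without and 0.0385 with the block). Its SE was 0.18 without and 0.11 with the block, and it was named after its values were seen. The share called, 1 of 27, stands beside 1.15% of all genes, and the list median was -0.04. With any 1 array left out, 0 of the 27 passed, where 0 to 115 of all genes did. So few calls among all genes cannot tell whether the call of Wtip depends on an array.

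Of 19 related EMT transcription factors 0 passed limma with or without the block (2 at an unadjusted p under 0.05 without it), and the median was -0.00. The E protein gene Tcf3, whose product pairs with bHLH factors, read -0.41 ± 0.13 SE (limma adjusted p = 0.197), and Zfp703 0.27 ± 0.09 (0.228). Among 20 other cadherins, catenins and adhesion partners 0 passed (1 at an unadjusted p under 0.05), with Jup (plakoglobin) at 0.28 ± 0.11 (limma adjusted p = 0.317) and Ctnnd2 at 0.18 ± 0.08 (0.420). Among 13 relatives and partners of vimentin 0 passed (2 at an unadjusted p under 0.05), with the neurofilament gene Nefl at -0.41 ± 0.14 (limma adjusted p = 0.248) and the filament protein Synm at -0.49 ± 0.20 (0.340).

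The epithelial side of the switch was read in the same way. Of 40 junction genes and EMT antagonists 0 passed limma (7 at an unadjusted p under 0.05, which is the 17.5% found over all genes), 26 were negative and the median was -0.07 (0.01 over all genes). Marveld2 (tricellulin), a tight junction protein, read 7.20, 7.34 and 6.86 in shControl and 6.25, 6.43 and 5.60 in shAtoh8 (-1.04 ± 0.22 SE, limma adjusted p = 0.0925, and 0.0162 with the block), and Evpl (envoplakin) read -0.41 ± 0.11 (0.137 and 0.0553). With the block 2 fell, Marveld2 and the adhesion protein Epcam, which is also among the duct markers. Epcam read -0.73 ± 0.19 SE without the block (limma adjusted p = 0.145 without and 0.0463 with it). The share of 2 of 40 is close to the 4.67% called over all genes (2.75% lower). The average of the list was lower in each pair, at 7.89, 7.96 and 7.83 in shControl and 7.78, 7.81 and 7.74 in shAtoh8. In replicate 3 of both groups 10 of the 40 were higher and 17 lower, against 27.1% and 34.4% of all genes. Cdh1 was at its highest of each group there (12.01 and 11.98).

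Markers of other cell types were read beside these values. The mean of 13 fibroblast and stellate cell markers ran from 5.40 to 5.62 in shControl and from 5.53 to 5.64 in shAtoh8, and 0 passed limma (0 at an unadjusted p under 0.05). The largest of these was Rgs5, at 0.69 ± 0.33 SE (limma adjusted p = 0.424), followed by Dpt at 0.13 ± 0.09 (0.629). In this list 7 of the 13 had a mean above the median of all probe sets (5.52). On the replicate 3 arrays the mean of this list was the lowest of its group (5.40 and 5.53). Of the 13 genes, 5 were higher there in both groups and 6 lower, against 27.1% and 34.4% of all genes. The mean of 12 endothelial and leukocyte markers ran from 4.84 to 4.89 and from 4.87 to 5.0. In this list 1 passed, beside 1.15% of all genes. It was Lyz2, a lysozyme, which rose by 0.75 ± 0.12 SE (limma adjusted p = 0.0499), with 6.53 as its mean over the 6 arrays. Of the 12, 4 lay above the median of all probe sets (5.52): Lyz2, Cd68 (6.63), Cd3e (6.16) and Laptm5 (6.04), all leukocyte genes. The other 8 lay below it, among them Ptprc (3.65) and Pecam1 (3.71), defining genes of leukocytes and endothelium. All but Lyz2 were named after their values were seen, and the part of such cells in the results was not tested. The call of Lyz2 was lost with any 1 array left out, where 0 to 115 of all genes passed. With so few calls among all genes, these settings cannot tell whether the call of Lyz2 depends on an array. Of the 10 duct markers 0 passed (4 at an unadjusted p under 0.05), with Car2 at 0.60 ± 0.12 SE (limma adjusted p = 0.0853) and Epcam as above. They averaged 8.20, 8.18 and 8.02 in shControl and 8.12, 8.15 and 7.94 in shAtoh8, lowest in replicate 3 of each group. There 0 of the 10 were higher in both groups and 5 lower, against 27.1% and 34.4% of all genes.

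The genes whose profiles over the 6 arrays lay closest to those of the members were found among 11088 other named genes with a mean above the median of all probe sets, by the root mean square difference of log2 values after centring each gene. Closest to Zeb2 were Camk2d, a calcium-dependent kinase (0.15), Irs2, an insulin receptor substrate (0.17), and Sh3bgrl2 (0.20), where Zeb2 itself deviated from its mean by 0.53. Camk2d read 9.53, 9.65 and 9.89 in shControl and 9.25, 8.45 and 9.48 in shAtoh8, with the same low replicate 2 array. Closest to Snai2 were Car6 (0.093), the sphingosine kinase Sphk1 (0.14) and the metalloprotease Adam8 (0.14), against 0.72 for Snai2's own deviation. Sphk1 read 6.10, 6.30 and 7.86 in shControl and 5.81, 6.05 and 7.0 in shAtoh8, high in replicate 3 as Snai2 was. Closest to Cdh2 were Pxmp4 (0.044), Serinc5 (0.054) and Gprin1 (0.055), to Zeb1 Camsap1 (0.036), Dock1 (0.039) and Dip2b (0.047), and to Vim Arpc2, Cs and Bahcc1 (0.021 to 0.023). How close the nearest profiles of other genes lie was not examined. None of these neighbours passed limma between the hairpins (adjusted p from 0.285 to 0.896). This is no separate result, since they were chosen for profiles close to those of members that did not pass.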

How the data were processed

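Total RNA from 6 samples was labelled as biotinylated cRNA and hybridised to Affymetrix arrays, per the labels' protocols. Each deposited value is the log2 signal of 1 probe set. They were made with RMA in the affy package, per the submitters' processing notes, with versions not given in the sources used here; RMA puts the arrays on a common distribution, which would remove a shift of most genes one way. Of 45101 probe sets, 64 controls were left out and 45037 tested without a brightness filter. Names came from the platform annotation: 34945 probe sets had 1 symbol, 932 several and 9160 none.

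Groups were compared by lmFit and eBayes of limma 3.58.1 (R 4.3.3), two-sided, with Benjamini-Hochberg adjustment over the 45037 probe sets and a threshold of 0.05. Intervals are limma's at 95%. The fit was also run on simulated data, with the outcome not given here. An exact permutation of 3 arrays against 3 cannot give a p below 0.1. The number of arrays limits the precision. The main fit had no term for the replicate number, and the block was an alternative. For the block and the pairs, replicate numbers were taken to pair the arrays. Deviations from group means correlated at 0.407, 0.187 and 0.433 within numbers and at -0.351 to 0.0292 between them. Deviations within a group cancel each other out, so the values between numbers are not independent of those within.

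The 7 members and 10 lists (219 entries, 209 matched) were chosen with earlier results of these data known. Named were the members, Atoh8, Cdh1, from each list the members that passed (at most 4) or else the 2 with the smallest p, and the 3 nearest profiles of each member whose mean was above the median of all probe sets; other names were chosen after their values were seen or to check the cell type. Alternatives covered normalization, centring, brightness, the block, the variance model, array weights, the choice of probe set, a threshold of 0.1, a minimum fold of 1.2, each array left out and each pair left out.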

Additional observations from a re-analysis of the deposited data

How the results depend on the processing

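Vim stayed negative and Cdh2 positive under all 20 alternatives run for each, and Zeb2 stayed negative under its 20. Some of these settings keep the fold change of Vim, Cdh2 and Zeb2 by design, so that its sign could not turn. They are the brighter probe sets, the block, the trend and robust variance, leaving out x and s probe sets, and the minimum fold, blocked or not. No member but Zeb2 passed under any alternative. With the replicate block Zeb2 passed (-0.72, adjusted p = 0.0477), so that the count of members was 1 in place of 0; the block changed no other member's call. With a minimum fold of 1.2 the blocked Zeb2 did not pass (adjusted p = 0.278). Twist1 turned negative with renewed quantile normalization (-0.0026), median centring (-0.0089) and array weights (-0.019), Snai1 turned positive with array weights (0.041), and Zeb1 was negative when its probe sets were averaged (-0.029) and on the next brightest (-0.14). For the 2 genes with a single probe set the next brightest could not be used, and Snai1 and Twist1 were too dim for the fit to brighter probe sets.

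Leaving out single arrays gave values from 0.016 to 0.21 for Zeb1, -0.96 to -0.38 for Zeb2, -0.37 to 0.31 for Snai1, -0.90 to 0.012 for Snai2, -0.11 to 0.19 for Twist1, -0.13 to -0.07 for Vim and 0.07 to 0.34 for Cdh2; 0 members passed, and 0 to 115 of all genes. With 1 pair left out and the replicate block on the other 2, Zeb1 (-0.011), Zeb2 (-0.53, which passed) and Twist1 (-0.086) had these values without replicate 2, Snai1 turned positive without replicate 3 (0.11), 0 to 1 members passed, and 0 to 962 of all genes.

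The count of all genes, 210, became 324 among brighter probe sets, 849 with the block, 339 with array weights, 459 with the mean of probe sets, 90 on the next brightest, 691 at a threshold of 0.1, 22 with a minimum fold of 1.2 and 72 with that fold and the block. Corepressors (1 called) became 2 with the block and 0 without x and s probe sets, on the next brightest and with the minimum fold, blocked or not, and 0 to 2 with arrays or pairs left out. Endothelial and leukocyte markers (1) became 0 with median centring, the trend and robust variance, without x and s probe sets, on the next brightest and with the minimum fold, blocked or not, and 0 to 1 with arrays or pairs left out. From 0 each, mesenchymal genes became 3 with the block, 1 at the threshold of 0.1 and 0 to 2 with arrays or pairs left out. Epithelial genes became 2 with the block, 1 at 0.1, 1 with the fold and the block, and 0 to 1 with arrays or pairs left out. TGF-beta responsive genes became 2 with the block, 1 with the trend and robust variance, 2 with the mean of probe sets, 1 on the next brightest, 1 at 0.1 and 0 to 2 with arrays or pairs left out. Duct markers became 1 with the block, with the mean of probe sets and at 0.1. Fibroblast markers became 0 to 1 with arrays or pairs left out. The causes of these changes were not tested.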
